A study of Mus musculus with 2 samples.

Results

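The miR-99/100 and miR-125 families are 6 microRNA genes, Mir99a, Mir99b, Mir100, Mir125a, Mir125b-1 and Mir125b-2, which lie in 3 genomic clusters that each also hold a let-7 gene. They were chosen by symbol, and all 6 have a row among the 1973 genes of the deposited tables. Small RNA of whole kidneys was sequenced from newborn mice of strain B6NCrl, at an age of 0 days. Pup 2 and pup 1 came from the same pregnancy, each gave 2 kidneys to 1 sample, and together they form 1 group with no treatment or altered gene named in the labels. Sex was not collected, so it cannot be set beside any value. The design holds no other condition, so genes are compared with each other in 1 tissue, and pup 2 with pup 1.

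A microRNA is cut from a hairpin precursor, and 1 strand of the resulting duplex is loaded into an Argonaute protein, where bases 2 to 8, the seed, lead the pairing with target mRNAs. miR-125 is the vertebrate counterpart of lin-4, which was found with let-7 in the nematode Caenorhabditis elegans as a regulator of developmental timing. In mammals miR-125 and let-7 both repress Lin28a, which in turn blocks let-7 maturation, and the Lin28 and let-7 axis has been linked in mouse kidney to how long nephrons go on forming around birth. miR-99 and miR-100 are known to repress Mtor, a kinase that drives growth. The sequences below come from RefSeq on GRCm38.p6, the same assembly as mm10, and are shown because they decide which reads can be given to which of the 6 genes. All 6 genes matched. Each is a mature strand from the 5′ side of its hairpin (the 5p arm), written 5′ to 3′ with the seed in capitals.
miR-99a-5p: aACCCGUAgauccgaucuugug
miR-100-5p: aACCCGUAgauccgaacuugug
miR-99b-5p: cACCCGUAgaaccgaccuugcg
miR-125a-5p: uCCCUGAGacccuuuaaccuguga
miR-125b-5p (from Mir125b-1 and from Mir125b-2): uCCCUGAGacccuaacuuguga
The 6 genes thus hold 2 seeds, ACCCGUA in the miR-99/100 genes and CCCUGAG in the miR-125 genes. Counted from the 5′ end of miR-99a-5p, miR-100-5p differs by the single substitution U16A, with the base of miR-99a-5p given first. miR-99b-5p differs from miR-99a-5p by A1C, U11A, U16C and U21C. miR-125a-5p, at 24 bases, has its first 13 bases in common with miR-125b-5p, at 22 bases.

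The sequence of miR-125b-5p is the same in both of its genes. The hairpins of Mir125b-1 and Mir125b-2 share a run of 24 bases, agUCCCUGAGACCCUAACUUGUGA, in which the capitals mark miR-125b-5p, and they part at the base right after it. A read of that arm alone therefore matches both genes. Their 3p arms differ by 5 substitutions over 22 bases and are shown, seed in capitals, because reads of this side can be placed.
miR-125b-1-3p: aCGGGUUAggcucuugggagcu
miR-125b-2-3p: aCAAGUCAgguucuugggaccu
Of the windows of 22 bases along each hairpin, 3 of 56 in Mir125b-1 and 3 of 50 in Mir125b-2 occur in the other hairpin, while none of those in Mir99a, Mir99b, Mir100 and Mir125a occurs in any other annotated hairpin. Among the let-7 genes of the clusters, Mirlet7c-1 shares 2 of 73 windows with Mirlet7c-2 and Mirlet7a-2 shares 2 of 75 with Mirlet7a-1. The rest of the genome was not searched.

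**Figure D1:**
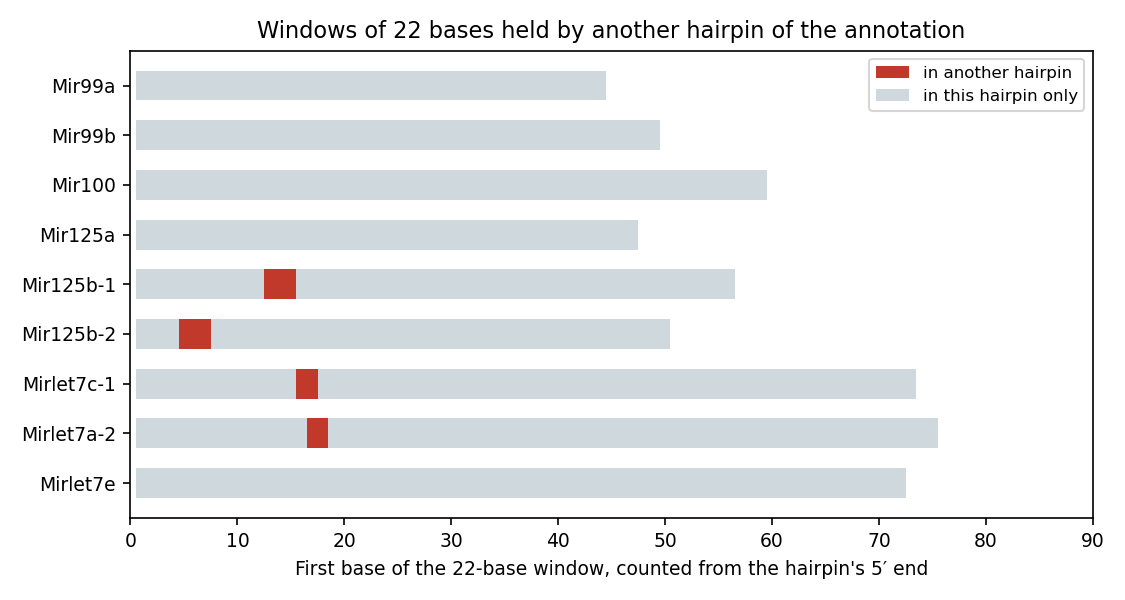
Each row is a hairpin and each step along the x axis a window of 22 bases, by its first base; red windows occur in another annotated hairpin. The miR-125b genes have 3 red windows each, Mirlet7c-1 and Mirlet7a-2 have 2 each, and the other 5 hairpins have none.

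On mm10 the plus strand carries all 3 clusters in the order miR-99/100 gene, let-7 gene, miR-125 gene. Mir99a (ENSMUSG00000065530.1) lies at chr16:77598936-77599000, and 47337 bases downstream of its start Mir125b-2 (ENSMUSG00000065472.1) begins at chr16:77646273-77646343. Both lie in introns of the noncoding host gene Mir99ahg. Mir100 (ENSMUSG00000093011.1) lies at chr9:41531425-41531504 in introns of the noncoding genes 3110039I08Rik and Gm49317. Mir125b-1 (ENSMUSG00000093354.1) lies in introns of the same genes at chr9:41581926-41582002, 50501 bases from the start of Mir100, where the noncoding gene Gm28119 has an exon. Mir99b (ENSMUSG00000065396.1) lies at chr17:17830188-17830257 in an intron of the protein-coding gene Spaca6. Mir125a (ENSMUSG00000065479.1) lies 624 bases from the start of Mir99b at chr17:17830812-17830879, where some transcript of Spaca6 has an exon. The chromosome 17 cluster is the most compact of the 3.

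Read counts on the strand of the gene came to 3846704 in pup 2 and 5832192 in pup 1 over all named genes. Multimapping reads, listed apart and given to no gene, were 2075718 in pup 2 and 3038663 in pup 1, or 31.0% and 30.3% of reads. Levels below are CPM, counts scaled to a named-gene total of 1000000, given with the mean ± SD over n = 2 pups, and are not scaled by length because a read covers a whole mature arm. The yield of reads per molecule may differ between microRNAs and is unknown here, so ratios between genes are ratios of reads. A tissue sample cannot tell fewer cells of a type from less RNA per cell. Of the cell type markers, the 5 epithelial miR-200 genes summed to 31660 CPM in pup 2 and 31551 CPM in pup 1. Neuronal and striated muscle markers summed to under 10 CPM in each pup. Among those with a row, 3 of 5 neuronal and 4 of 5 striated muscle genes were at 0. The 3 leukocyte genes with a row summed to 561 CPM in pup 2 and 611 CPM in pup 1. The liver gene Mir122 was at 44.2 CPM in pup 2 and 56.9 CPM in pup 1.

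Together the 6 genes held 4.52% of counts in pup 2 and 3.93% in pup 1 (95% Wilson intervals 4.50 to 4.54 and 3.91 to 3.94, for counting error only), or 4.22% ± 0.419. Nearly all of it came from the miR-99/100 genes, with 4.15% in pup 2 and 3.55% in pup 1, against 0.374% in pup 2 and 0.376% in pup 1 for the miR-125 genes. The miR-99/100 share differed between the pups by more than its counting intervals, and the intervals of the miR-125 share overlapped (0.368 to 0.380 in pup 2 and 0.371 to 0.381 in pup 1). The miR-125 share leaves out any miR-125b-5p read listed as multimapping. The tables do not say how many of the multimapping reads those are.

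Mir99a had 107193 counts in pup 2 and 135111 in pup 1, which is 27866 and 23166 CPM. At 25516 ± 3323 CPM it ranked 12th of the 1973 genes and supplied 66.2% ± 1.39 of the miR-99/100 counts. Its pup values lay below those of Mir130a, the gene next above (29274 CPM in pup 2 and 29799 in pup 1), and on either side of those of Mir23b, the gene next below (24226 and 24319). Mir99b had 37720 counts in pup 2 and 52699 in pup 1, or 9806 and 9036 CPM, and ranked 22nd. It lay below both pup values of Mir23a (11916 and 11229 CPM) and overlapped Mir20a (8609 in pup 2 and 9627 in pup 1).

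Mir100 had 14579 counts in pup 2 and 19256 in pup 1, or 3790 and 3302 CPM, and ranked 39th at 3546 ± 345 CPM. Its pup values overlapped those of Mir200c (3581 in pup 2 and 3762 in pup 1), next above, and lay above those of Mir139 (3200 and 3279), next below. The 3 miR-99/100 genes kept the order Mir99a, Mir99b, Mir100 in each pup with no overlap of values. Mir99a stood at 2.84 times Mir99b in pup 2 and 2.56 times in pup 1, and at 7.35 and 7.02 times Mir100. Full-length reads of miR-99a-5p and miR-100-5p are told apart by base 16 alone, and how many mismatches the aligner allowed is not given in the sources used here.

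Mir125a had 12268 counts in pup 2 and 18899 in pup 1, or 3189 and 3240 CPM, and ranked 41st. Its values overlapped those of its neighbours in rank, Mir139 and Mir140 (3198 in pup 2 and 3143 in pup 1), so the order of these genes is not resolved by 2 pups. Mir125a lay below both pup values of Mir100. Mir125b-2 had 1096 counts in pup 2 and 1576 in pup 1, or 285 and 270 CPM (95% Wilson intervals 269 to 302 and 257 to 284). Mir125b-1 had 1011 counts in pup 2 and 1473 in pup 1, or 263 and 253 CPM (247 to 280 and 240 to 266).

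The miR-125b genes, which lie on different chromosomes, were neighbours in rank, 123rd and 124th. Both counts, and the ratio between them, leave out any miR-125b-5p read listed as multimapping. Mir125b-2 stood at 1.08 times Mir125b-1 in pup 2 (95% exact interval 0.994 to 1.18) and at 1.07 times in pup 1 (0.996 to 1.15), so counting error does not separate them within a pup. Mir125a had 12.1 times the counts of Mir125b-1 in pup 2 and 12.8 times in pup 1, and 11.2 and 12.0 times those of Mir125b-2. The 5p arm of Mir125a has no second annotated copy and that of miR-125b does, so these ratios leave out multimapping reads of miR-125b-5p, and any of Mir125a that match elsewhere in the genome. The members below 1000 CPM were these 2 genes alone, while 73 genes of the table reached 1000 CPM in both pups.

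Only the seed of the miR-125 genes also occurs outside the 6 genes. No other mature microRNA in the RefSeq table has the seed ACCCGUA. The seed CCCUGAG is found in Mir351, of the X-linked cluster of Mir322 and Mir503, and in Mir6367 and Mir6394.
miR-351-5p: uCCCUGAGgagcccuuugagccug
Shown to compare it with miR-125a-5p, it has the first 8 bases in common and then departs from it. Mir351 had 11817 counts in pup 2 and 15955 in pup 1, or 3072 and 2736 CPM. It stood at 0.963 times Mir125a in pup 2 (95% exact interval 0.939 to 0.988) and 0.844 times in pup 1 (0.827 to 0.862). Of the counts of the miR-125 genes and Mir351 together, Mir351 held 43.6% ± 2.14 and Mir125a 48.4% ± 2.14. That total leaves out any miR-125b-5p read listed as multimapping, so both shares may be too high. Mir6367 and Mir6394 had 0 counts in both pups, which allows up to 0.780 CPM in pup 2 and 0.514 CPM in pup 1 (3 counts).

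The related miR-10 genes of the Hox clusters have another seed. miR-10a-5p holds a run of 11 bases of miR-100-5p, but starting at base 7 where miR-100-5p has it from base 6, so the seeds read differently.
miR-10a-5p: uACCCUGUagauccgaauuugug
Mir10a, the gene with the highest count, stood at 5.42 times Mir99a in pup 2 and 6.81 times in pup 1. Set against miR-10, the miR-99/100 genes were the lower group of these look-alike sequences in both pups.

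The members' clusters were next described as units. In each of the 3 clusters the miR-99/100 gene had more counts than the miR-125 gene in both pups. The ratio was 97.8 in pup 2 (95% exact interval 92.2 to 103.9) and 85.7 in pup 1 (81.6 to 90.2) for Mir99a over Mir125b-2. It was 14.4 in pup 2 (13.5 to 15.4) and 13.1 in pup 1 (12.4 to 13.8) for Mir100 over Mir125b-1. For Mir99b over Mir125a, where both 5p arms are without a second annotated copy, it was 3.07 in pup 2 (3.01 to 3.14) and 2.79 in pup 1 (2.74 to 2.84). The ratios of the first 2 clusters rest on miR-125b genes that lose any multimapping 5p reads. All 3 ratios were higher in pup 2, by 1.14, 1.10 and 1.10 times, and the counting intervals of the pups overlapped in the Mir100 cluster alone. No test of that difference was run.

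**Figure D2:**
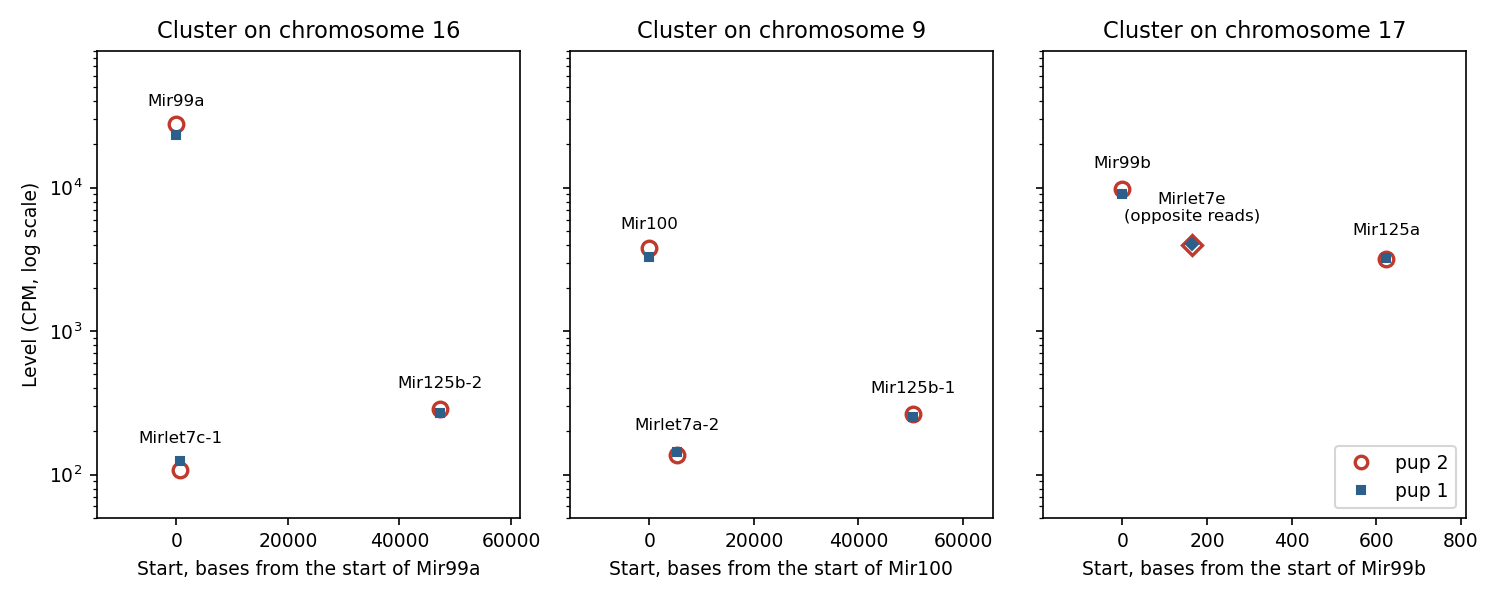
Level of each gene (CPM, log scale) against the distance of its start from the first gene of its cluster, in bases; open red symbols are pup 2 and filled blue ones pup 1. In each cluster the miR-99/100 gene is the highest, at 25516, 3546 and 9421 CPM on average; the diamond stands for reads opposite to Gm25927 at the place of Mirlet7e.

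In the clusters on chromosomes 16 and 9, the let-7 gene had fewer counts than either of its neighbours in both pups. Mirlet7c-1 had 414 counts in pup 2 and 721 in pup 1, or 108 and 124 CPM, so Mir99a exceeded it 259-fold in pup 2 and 187-fold in pup 1. Mirlet7a-2 had 528 counts in pup 2 and 843 in pup 1, or 137 and 145 CPM, and Mir100 exceeded it 27.6-fold and 22.8-fold. The 5p arm of Mirlet7c-1 is also found in Mirlet7c-2, and the stretch that Mirlet7a-2 shares is found in Mirlet7a-1, so these counts too leave out reads listed as multimapping.

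Mirlet7e, between Mir99b and Mir125a, is not among the rows of the tables. Its place, chr17:17830352-17830444 on the plus strand, is covered by Gm25927, a microRNA gene annotated on the minus strand. Its mature arm is shown because it has no second annotated copy, unlike the let-7 arms of the other clusters.
let-7e-5p: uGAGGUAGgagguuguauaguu
Gm25927 had 0 counts on its own strand and 15431 opposite reads in pup 2 and 23650 in pup 1, which equal 4011 and 4055 CPM of named-gene counts. Taken as the reads of that place, they stood at 1.26 times Mir125a in pup 2 (95% exact interval 1.23 to 1.29) and 1.25 times in pup 1 (1.23 to 1.28). Mir99b stood at 2.44 times these reads in pup 2 and 2.23 times in pup 1. The levels of the chromosome 17 cluster so ran from Mir99b over the place of Mirlet7e to Mir125a, all within a 3.07-fold range in pup 2 and a 2.79-fold range in pup 1. No read was listed on the strand opposite to any of the 6 genes.

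**Figure D3:**
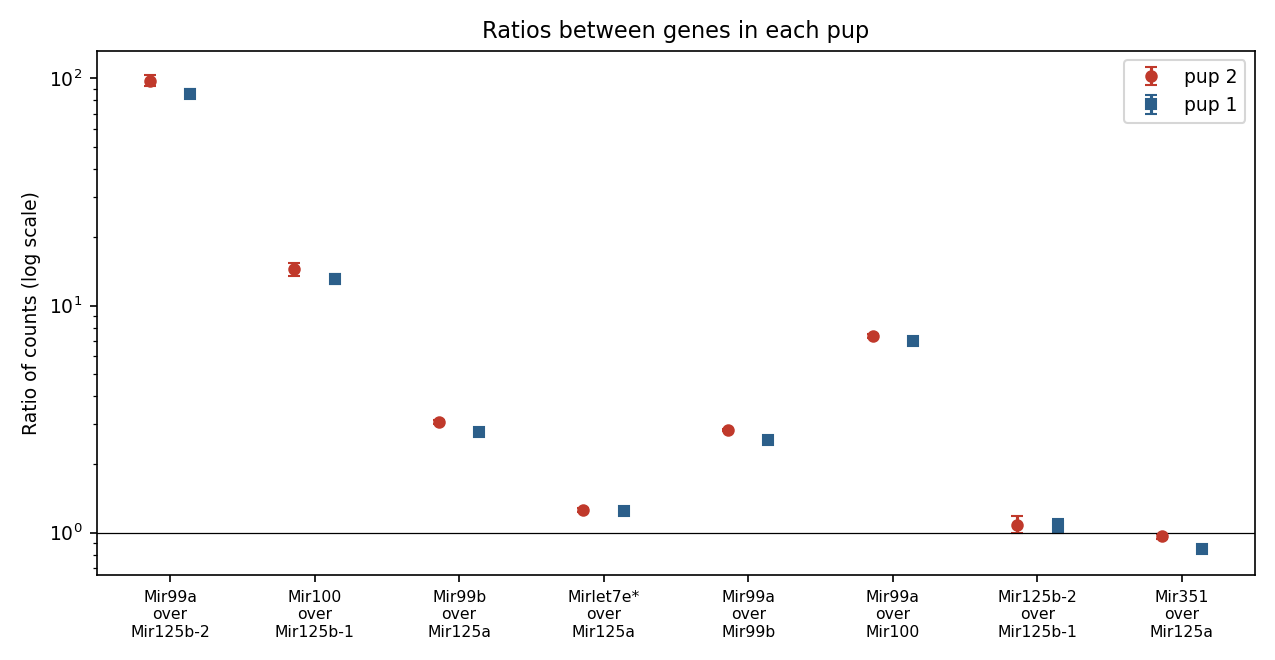
Ratio of counts between genes in each pup on a log scale, with 95% exact intervals for counting error; red circles are pup 2 and blue squares pup 1. The asterisk marks reads opposite to Gm25927 at the place of Mirlet7e; of the 18 ratios computed 8 are drawn, none with Mirlet7c-1 or Mirlet7a-2, and these run from 97.8 for Mir99a over Mir125b-2 in pup 2 to 0.844 for Mir351 over Mir125a in pup 1.

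Between the pups, the 3 miR-99/100 genes were higher in pup 2 than in pup 1, and none of the miR-125 genes passed as higher. Whether the families differ in this was not tested. Each side of this comparison is 1 library, so the exact two-sided binomial test with Benjamini-Hochberg adjustment over 324 genes (mean count of at least 10, scaled by TMM) sets the reads of 1 library against those of another and says nothing about conditions. TMM scaling puts each log2 ratio 0.02 below the ratio of the CPM values, which use library totals. Mir99a had a log2 ratio of pup 2 over pup 1 of 0.25 (95% counting interval 0.23 to 0.26, adjusted p = 1.1e-298, from a p held at a lower limit of 1e-300). Mir100 had a log2 ratio of 0.18 (0.15 to 0.21, adjusted p = 6.0e-28 in the same exact test). Mir99b had a log2 ratio of 0.10 (0.08 to 0.12, adjusted p = 3.5e-22 in the same exact test).

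Mir125a had a log2 ratio of -0.04 (-0.08 to -0.01, adjusted p = 0.028 in the exact test), which no longer passed with library totals (adjusted p = 0.36 in the same exact test). Mir125b-2 had 0.06 (-0.06 to 0.17, adjusted p = 0.52 in the exact test) and Mir125b-1 had 0.04 (-0.08 to 0.15, adjusted p = 0.71 in the exact test), so neither passed. These intervals also take in a log2 ratio of 0.10 such as that of Mir99b. Of the 6 genes, 3 passed as higher in pup 2, where 12.7% of tested genes did, and 1 as lower, where 21.0% did. Passing in either direction was found for 33.6% of tested genes, and a test that knows only counting error passes abundant genes at small ratios. The members' median log2 ratio was 0.08, beside -0.04 over all tested genes.

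The common dispersion of edgeR, with both pups as 1 group, came to a coefficient of variation of 9.29% over the tested genes. An exact test of edgeR with that dispersion called 1 of the 324 genes, Mir451a, 0.309%, or 14 at an unadjusted p under 0.05, and none of the 6 in either way. That dispersion comes from the same difference between 2 libraries that is then tested, so a gene near the typical spread could hardly pass, and the count of none says nothing about the 6 genes. The difference of Mir99a was exceeded in size by 88 of the 324 genes, taken over all levels. Those 88 include genes with few counts, such as Mir7b (1.66, from 28 counts in pup 2 and 13 in pup 1). Among the genes ranked above Mir99a, Mir126a alone (0.26) had a larger difference, with Mir30e (-0.23) close to it.

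The seed relatives and cluster neighbours gave these values in the same comparison. Mir351, with the miR-125 seed, had a log2 ratio of 0.15 (0.11 to 0.18). Mirlet7c-1, next to Mir99a, had -0.22 (-0.40 to -0.04), Mirlet7a-2, next to Mir100, had -0.10 (-0.26 to 0.06), and the reads at the place of Mirlet7e had -0.04 (-0.07 to -0.01). In the chromosome 16 cluster the intervals of Mir99a and its let-7 neighbour, for counting error only, thus lie on opposite sides of 0. Mirlet7c-1 had 414 counts in pup 2 and 721 in pup 1, which leave out reads listed as multimapping. Of 10 let-7 genes with a row, among the 12 listed, 1 passed the exact binomial test as higher in pup 2 and 5 as lower. Their median log2 ratio was -0.06. Over all tested genes 12.7% passed as higher and 21.0% as lower, with a median of -0.04. Of the 5 lower genes, Mirlet7a-1, Mirlet7c-1 and Mirlet7c-2 share 22 bases with another hairpin. Mirlet7d passed at -0.03, where TMM scaling lowers each ratio by 0.02. Mir10a had -0.08 and Mir10b -0.07.

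Markers of cell types also differed between the pups, given here as log2 ratios of pup 2 over pup 1 on the same TMM scale. The endothelial list held 1 gene, Mir126a, so no other gene of that list can be set beside it. Mir126a was at 87209 CPM in pup 2 and 71968 CPM in pup 1, a log2 ratio of 0.26. The 4 genes of smooth muscle and mesenchyme, each at 10 CPM or more in both pups, summed to 44496 CPM in pup 2 and 40237 CPM in pup 1, of which Mir143 had 39014 and 34820 CPM. Mir143 (0.14) and Mir145a (0.12) were higher in pup 2, Mir199b (-0.18) was lower, and Mir214 (-0.03) did not pass the exact binomial test. Of the 5 epithelial genes, whose sum had -0.02, Mir200b passed as higher (0.03), Mir429 (-0.02) and Mir200c (-0.09) passed as lower, and Mir200a (-0.06) and Mir141 (-0.07) did not pass. By library totals Mir429 was at 17193 CPM in pup 2 and 17154 CPM in pup 1. Mir429 and the sum were thus lower in pup 2 on the TMM scale only. The 3 red blood cell genes summed to 98.8 CPM in pup 2 and 240.9 CPM in pup 1, and that fall came from Mir451a alone, with 206 counts in pup 2 and 1213 in pup 1. Mir144 went the other way, with 165 counts in pup 2 and 188 in pup 1 (0.39, passed as higher), and Mir486 had 9 counts in pup 2 and 4 in pup 1. The part of these differences in the values of the miR-99/100 genes was not tested.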

How the data were processed

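The deposited tables give raw whole-number counts for each gene, with 1 table per pup. Reads were aligned to mm10 and counted over annotation M4, per the deposited notes. Trimming, filters and alignment settings were not given in the sources used here. Row names are those of the STAR gene count output. The second count column, read from the values as the strand of the gene, was used. Counts are per hairpin gene, with both arms together. Rows that name no gene (42.6% of reads in pup 2 and 41.8% in pup 1) stayed out of totals.

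Of 1973 gene identifiers, 1894 matched GENCODE M21, on the same assembly, and the 79 others held 1 count. M21 gave symbols, places and hairpins, and RefSeq tables gave mature arms. Shares have 95% Wilson intervals and ratios exact binomial ones, all for counting error only, since PCR copies cannot be recognised without molecular identifiers. The exact binomial test used TMM effective library sizes (edgeR 4.0.16) over all named genes, a threshold of 0.05 and a prior count of 0.5. It was tried on simulated counts with counting error only and known library totals. That trial says nothing about the spread between pups or about TMM scaling. DESeq2 1.42.0 size factors were an alternative. The labels name 2 pups of 1 pregnancy, and with 1 group no test between groups exists.

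Genes named are the members, microRNA genes within 50 kb, genes with a member's seed, Mir10a and Mir10b, and the neighbours in rank; marker lists come with them. Members, lists and tests were chosen with earlier results of these data known.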

Additional observations from a re-analysis of the deposited data

Results flagged for a closer look

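Reads on the strand opposite to Gm25927, at the place of Mirlet7e between Mir99b and Mir125a, lie outside the counts used for the 6 genes and exceeded the limit of 3 counts in both pups, with 4033 ± 30.8 CPM over n = 2 pups. They were 19.6% of all opposite-strand reads in pup 2 and 19.4% in pup 1. Groups of 2 pups are too small for a check of single samples that stand apart.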

How the results depend on the processing

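The share of the 6 genes, 4.22% of counts, was 4.99% without Mir10a in the total and 2.44% with all reads as the total. The share of the miR-99/100 genes, 3.85%, was 4.55% and 2.22% in these settings. That of the miR-125 genes, 0.375%, was 0.444% and 0.217%, 0.367% with counts on either strand and 0.329% without genes that share 22 bases with another hairpin, which drops both miR-125b genes. Leaving out a pup gave 3.93% to 4.52% for the 6 genes, 3.55% to 4.15% for the miR-99/100 genes and 0.374% to 0.376% for the miR-125 genes. The 18 ratios between genes were recomputed with counts on either strand, where the 6 genes gain no reads, and in each pup alone, which does not test their stability. Genes that differed between pups were 109 (41 higher and 68 lower in pup 2) and 95 to 111 under other scalings, filters and strands. With library totals the split was 46 higher and 51 lower, and with TMM over the tested genes only, chosen after seeing the data, 48 and 50. The exact test of edgeR, which uses the spread between the pups, called 1 gene, 0 higher and 1 lower, and 0 members. The log2 ratios of Mir99a (0.24 to 0.27), Mir100 (0.17 to 0.20) and Mir99b (0.09 to 0.12) passed in every setting but that one. Mir125a also did not pass with library totals, DESeq2 size factors, no filter on low counts or TMM over tested genes; the cause was not tested. No paired analysis was possible because the 2 pups form 1 group. Depth leaves the miR-125b genes, at 1011 to 1576 counts, with the widest counting intervals of the 6 for the pup ratios. Their counts also leave out any 5p read listed as multimapping.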
